A study of Mus musculus with 6 samples.

Results

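The Dlx and GABAergic core genes are 9 genes that mark inhibitory neurons of the forebrain, and all 9 were measured among the 19938 genes tested on the arrays. They were listed by name, with no threshold on a measured value, although earlier results of these data were known when the list was drawn up: Dlx1, Dlx2, Dlx5, Dlx6, Gad1, Gad2, Slc32a1, Sp9 and Maf. Each was read by a single probe set with 1 gene symbol, so no choice between probe sets was needed. The tissue was neocortex, the largest part of the developing cortex, dissected from 6 mouse embryos at embryonic day 14.5. The 3 controls were wild type (Bcl11a+/+), where Bcl11a encodes a zinc finger factor that cortical neurons express. The 3 mutants carried a deleted floxed allele of Bcl11a on both chromosomes (Bcl11aΔflox/Δflox). RNA of each embryo was hybridised to its own Affymetrix Mouse Gene 1.0 ST array. The sources used here do not give the Cre driver, the cell types that lost Bcl11a or the exon removed, so whether interneurons carried the deletion is unknown.

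Excitatory neurons of the cortex are born in the cortex itself, whereas GABAergic interneurons are born in the ganglionic eminences of the ventral forebrain and migrate into the cortex. Homeodomain factors of the Dlx family act in the progenitors and young neurons of the eminences, where they drive the enzymes and the transporter by which a cell makes and packs the inhibitory transmitter GABA. RNA of these genes in dissected neocortex is therefore taken to come mainly from cells that have migrated in, and from any ventral tissue left on the sample.

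Promoter sequences are shown as a description of these genes, and whether they bear on the values below was not tested. RefSeq's table for GRCm38.p6 held a promoter for 6 of the 9 genes, and the 250 bases before the annotated start of Dlx1, Dlx2, Gad2 and Sp9 are given 5′ to 3′ on the strand of the gene. Capitals mark 3 kinds of match on either strand, which are the homeodomain core TAATT, the CCAAT box and the Sp box GGGCGG.
Dlx1 (chr2:71529195-71529444, plus strand): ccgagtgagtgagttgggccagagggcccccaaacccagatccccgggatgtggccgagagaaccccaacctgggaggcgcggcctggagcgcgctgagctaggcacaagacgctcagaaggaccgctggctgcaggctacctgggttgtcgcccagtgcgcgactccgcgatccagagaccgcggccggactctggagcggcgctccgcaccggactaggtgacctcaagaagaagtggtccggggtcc
Dlx2 (chr2:71546755-71547004, minus strand): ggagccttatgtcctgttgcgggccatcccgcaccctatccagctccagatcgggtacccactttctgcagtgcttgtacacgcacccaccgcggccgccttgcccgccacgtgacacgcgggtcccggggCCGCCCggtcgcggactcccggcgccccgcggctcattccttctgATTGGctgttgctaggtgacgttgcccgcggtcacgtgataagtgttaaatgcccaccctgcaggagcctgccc
Gad2 (chr2:22622077-22622326, plus strand): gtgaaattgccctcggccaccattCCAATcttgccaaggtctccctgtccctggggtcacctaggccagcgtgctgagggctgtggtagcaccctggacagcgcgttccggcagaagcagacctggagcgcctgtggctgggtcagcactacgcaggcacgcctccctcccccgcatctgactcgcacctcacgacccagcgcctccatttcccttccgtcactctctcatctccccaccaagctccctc
Sp9 (chr2:73271676-73271925, plus strand): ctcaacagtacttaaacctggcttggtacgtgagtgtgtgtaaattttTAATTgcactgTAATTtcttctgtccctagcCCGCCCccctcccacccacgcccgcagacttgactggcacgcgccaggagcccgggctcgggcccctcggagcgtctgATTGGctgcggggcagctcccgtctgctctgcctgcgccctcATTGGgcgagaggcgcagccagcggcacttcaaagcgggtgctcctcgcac

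Of the 6 promoters, that of Sp9 was the 1 with a homeodomain core, in 2 places, where 25% of all 32851 promoter windows of this length held at least 1. The CCAAT box stood in the windows of Dlx2, Gad2 and Sp9, and in 33.8% of all windows. The Sp box stood in those of Dlx2, Gad1 and Sp9, and in 32.7% of all windows. TGACCA, the short motif that Bcl11a is known to bind, was searched on both strands, was in none of the 6 windows and was in 11.4% of all windows. The 6 windows had a GC content of 58.0 to 68.0%, against a median of 52.4% over all windows. A match is a description of letters and not a bound site.

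Bcl11a itself was lower in every library labelled mutant. Its log2 values were 12.20, 12.30 and 12.26 in control embryos, against 11.41, 11.49 and 11.34 in mutant embryos (limma adjusted p = 0.00201). Over all genes tested, 57 passed an adjusted p under 0.05, which is 0.286% of them, and 49 of these were higher (0.246%) and 8 lower (0.0401%) in the mutants. Correlations between arrays lay between 0.995 and 0.998. Mutant replicate 1 stood apart by genes of meninges and pericytes, the tissue that covers the brain and wraps its vessels. The mean of 12 such genes, each centred on its mean over the 6 arrays, was 0.75 in that array. It was -0.00055 and -0.06 in mutant replicates 2 and 3, and -0.29 to -0.17 in the controls. Every mutant thus lay above every control for this list.

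None of the 9 genes passed over all genes, with a lowest adjusted p of 0.516 in limma. The 95% interval of the mutant to control ratio lay within 1.5-fold of 1 for all 9, as it did for 97.9% of all genes tested. At an unadjusted limma p under 0.05, 2 of the 9 were past, Sp9 and Maf, where 6.05% of all genes were. These 2 were also the genes whose control and mutant arrays did not overlap, with mutants above controls. Such separation of the groups was found for 10.5% of all genes, 7.69% with mutants above and 2.85% with mutants below. The differences were positive for 8 of the 9 genes, with a median of 0.09 on the log2 scale, beside 60.3% of all genes and a median of 0.02. The median of the 9 was 0.03 without control replicate 1, 0.15 without control replicate 3 and 0.02 without mutant replicate 3. Quantile normalization moved it to 0.06, and centring each array on its median to 0.05. With the arrays scaled anew by quantile normalization or by median centring, 7 of the 9 were positive, beside 47.0% and 39.2% of all genes. The ratios of dim genes are understated, because RMA compresses differences near the background.

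**Figure D1:**
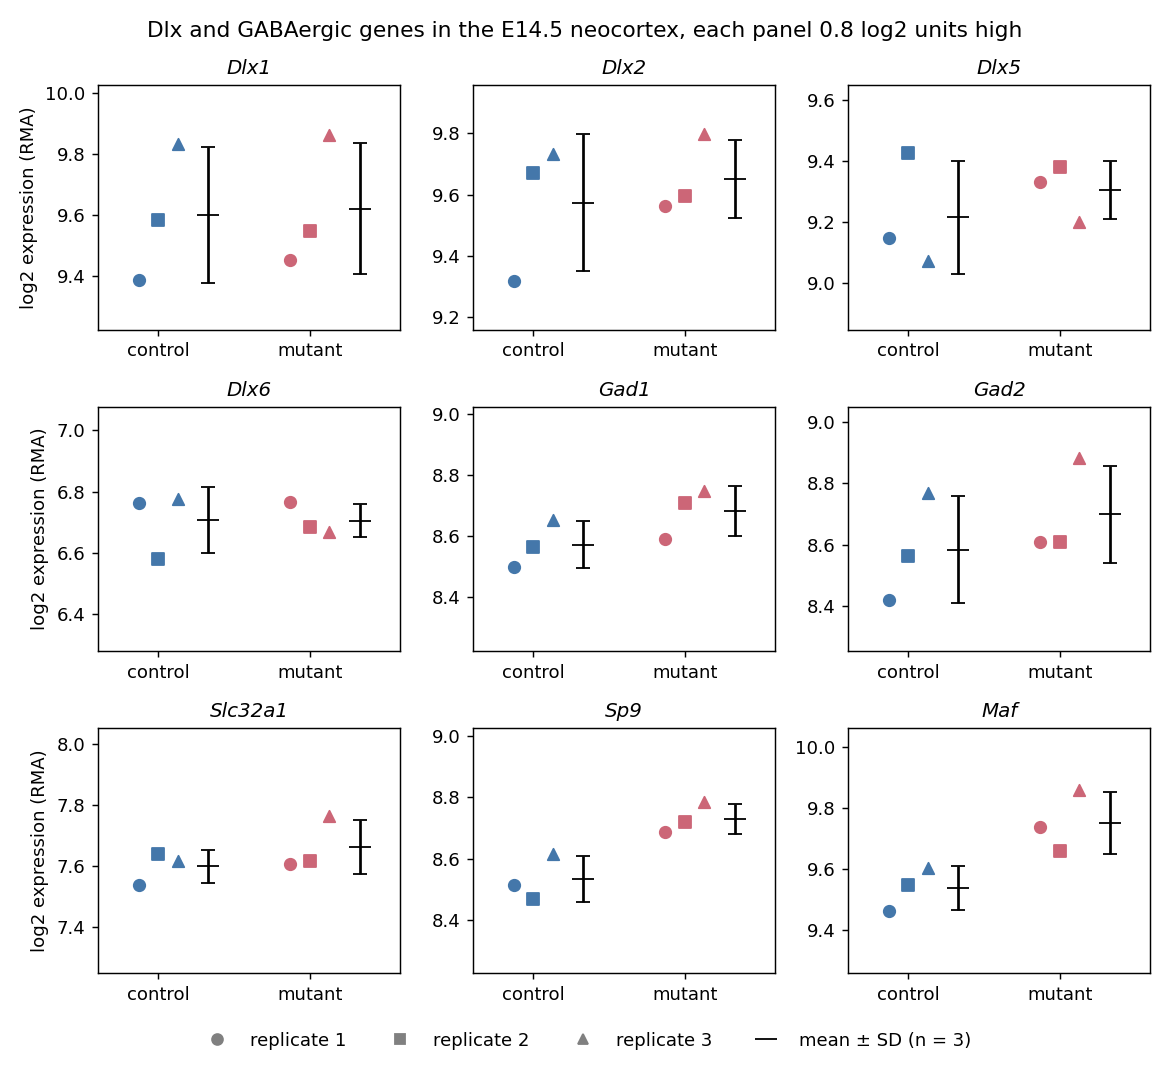
Log2 expression (y axis) of each of the 9 genes in the 3 control (blue) and 3 mutant (red) arrays, with marker shapes for the replicate number and black bars for the mean ± SD (n = 3); each panel spans 0.8 log2 units, written in its title. The points of the groups interleave in 7 panels, and all mutant points lie above all control points for Sp9 and Maf.

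Dlx1 and Dlx2 are neighbouring homeodomain genes on chromosome 2 that act early in the GABAergic lineage. Dlx1 (Entrez 13390) read 9.39, 9.58 and 9.83 in control replicates 1, 2 and 3, and 9.45, 9.55 and 9.86 in mutant replicates 1, 2 and 3. The groups covered nearly the same range, and replicate 3 was the highest array of each. The group means were 9.60 ± 0.22 and 9.62 ± 0.21 (SD, n = 3), and mutants differed by 0.02 ± 0.13 on the log2 scale (SE, adjusted p = 0.9995 in limma). The 95% interval of the ratio ran from 0.822 to 1.25. The direction of this difference was not stable, since it turned to -0.017 with quantile normalization and -0.018 with median centring.

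Dlx2 (Entrez 13392) read 9.32, 9.67 and 9.73 in control embryos, against 9.56, 9.60 and 9.80 in mutant embryos. Control replicate 1 was the lowest array and mutant replicate 3 the highest, with the other 4 between. Mutants differed by 0.08 ± 0.11 on the log2 scale (SE, adjusted p = 0.9995 in limma), a value that was -0.05 without control replicate 1. Dlx1as, an antisense RNA of the Dlx1 locus, was at 9.53 ± 0.19 in the control group and 9.63 ± 0.23 in the mutant group (SD, n = 3). Like Dlx1 and Dlx2 it was lowest in control replicate 1, at 9.31, and highest in mutant replicate 3, at 9.88. How far the probe sets of Dlx1 and Dlx1as tell the overlapping RNAs apart was not tested.

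Dlx5 and Dlx6 form the other neighbouring Dlx pair, on chromosome 6, and act later in the same lineage. Dlx5 (Entrez 13395) read 9.15, 9.42 and 9.07 in control embryos, against 9.33, 9.38 and 9.20 in mutant embryos. Here control replicate 2 was the highest array and control replicate 3 the lowest, so the mutants lay inside the range of the controls. Mutants differed by 0.09 ± 0.10 on the log2 scale (SE, adjusted p = 0.9995 in limma). Dlx6 (Entrez 13396) read 6.76, 6.58 and 6.77 in control embryos, against 6.77, 6.68 and 6.67 in mutant embryos. Its means were the same to 2 decimals, 6.71 ± 0.11 and 6.71 ± 0.05 (SD, n = 3), and the 95% interval of its ratio ran from 0.893 to 1.12. Its signal lay at the 35.1st percentile of all genes, the lowest of the 9, so compression by RMA bears most on Dlx6. Dlx3 and Dlx4, which act mainly outside the brain, differed by -0.01 and -0.05, and none of Dlx1as, Dlx3 and Dlx4 passed.

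Gad1 and Gad2 encode the enzymes that make GABA from glutamate, and Slc32a1 encodes the transporter that loads GABA into synaptic vesicles. Gad1 (Entrez 14415) read 8.50, 8.56 and 8.65 in control embryos, against 8.59, 8.71 and 8.75 in mutant embryos. Mutant replicate 1 lay below control replicate 3, and the other mutants lay above all controls. Mutants differed by 0.11 ± 0.07 on the log2 scale (SE, adjusted p = 0.9995 in limma), with a 95% interval of the ratio from 0.967 to 1.20.

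Gad2 (Entrez 14417) read 8.42, 8.56 and 8.77 in control embryos, against 8.61, 8.61 and 8.88 in mutant embryos. As for Dlx1, replicate 3 was the highest array of each group, and control replicate 3 exceeded the other mutants. Mutants differed by 0.12 ± 0.11 on the log2 scale (SE, adjusted p = 0.9995 in limma). Slc32a1 (Entrez 22348) read 7.54, 7.64 and 7.62 in control embryos, against 7.61, 7.62 and 7.76 in mutant embryos. Mutant replicate 3 was the highest array, and the other mutants lay inside the range of the controls. Mutants differed by 0.06 ± 0.07 on the log2 scale (SE, adjusted p = 0.9995 in limma), with a 95% interval of the ratio from 0.939 to 1.16.

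Sp9 encodes a zinc finger factor of the ganglionic eminences, and Maf encodes a leucine zipper factor of interneurons from the medial eminence. Sp9 (Entrez 381373) read 8.51, 8.47 and 8.62 in control embryos, against 8.69, 8.72 and 8.78 in mutant embryos. The groups did not overlap, with 0.07 between the highest control and the lowest mutant. The means were 8.53 ± 0.08 and 8.73 ± 0.05 (SD, n = 3), and the log2 difference of 0.20 ± 0.06 (SE) gave a limma adjusted p of 0.516. The ratio was 1.15, with a 95% interval from 1.04 to 1.27.

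Maf (Entrez 17132) read 9.46, 9.55 and 9.60 in control embryos, against 9.74, 9.66 and 9.86 in mutant embryos. The groups were 0.05 apart at their closest points. The means were 9.54 ± 0.07 and 9.75 ± 0.10 (SD, n = 3), and the log2 difference of 0.21 ± 0.07 (SE) gave a limma adjusted p of 0.558. The ratio was 1.16, with a 95% interval from 1.03 to 1.30. An exact permutation test (two-sided) gave p = 0.1 for Sp9 and for Maf, the lowest value possible with 3 arrays a side, and 0.2 to 1 for the other 7 genes. Microglia and macrophages also express Maf. All 10 genes fixed for those cells had positive differences, with a median of 0.21, and 0.15 without mutant replicate 1. Their centred mean was -0.21 to -0.05 in the controls and 0.03 to 0.25 in the mutants, and their part in the difference of Maf was not tested. Without mutant replicate 1, the array highest for that list, Maf differed by 0.22. Without control replicate 1, the array lowest for it, Maf differed by 0.18 and the list median was 0.18. Without mutant replicate 3 they were 0.16 and 0.26. Leaving out 1 array gave 0.16 to 0.26 for Maf and 0.15 to 0.26 for the list median.

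**Figure D2:**
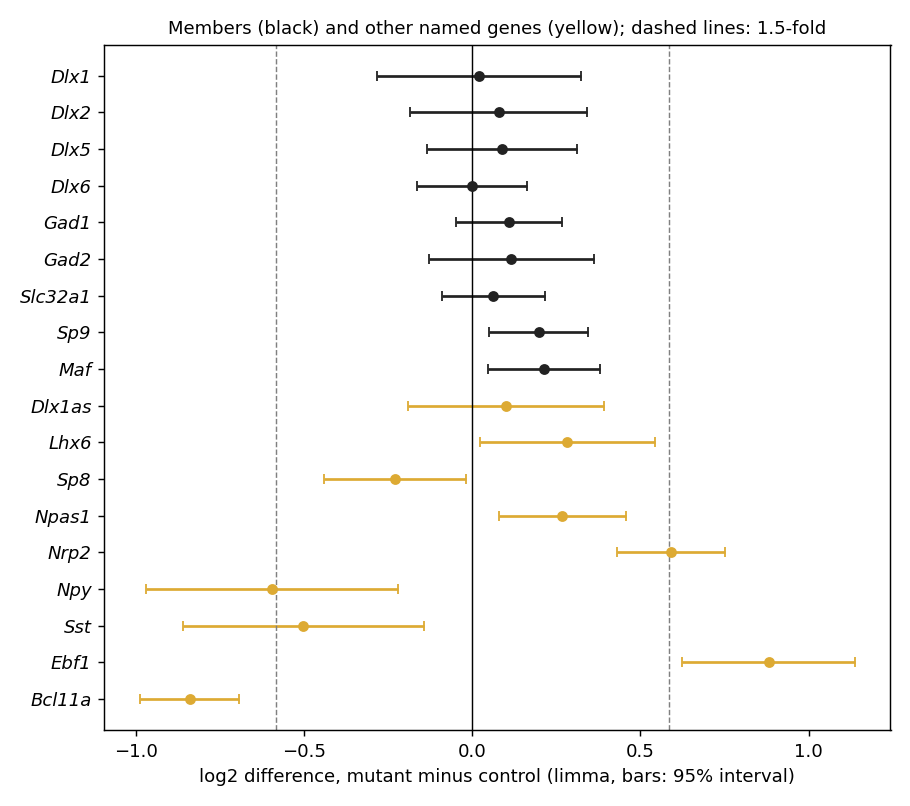
Log2 difference of mutant minus control (x axis, log2 units) with limma's 95% interval as bars for the 9 genes (black) and 9 other named genes (yellow); dashed lines mark 1.5-fold. The intervals of the 9 all lie inside the dashed lines, and those of Sp9 and Maf do not reach 0.

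Embryos differed from each other more than the genotypes did for part of the list. The SD within groups was 0.22 for Dlx1, 0.18 for Dlx2 and 0.17 for Gad2, where the median over all genes was 0.09. These SDs lay at the 96.6th, 92.8th and 89.7th percentile of all genes. For Slc32a1, Gad1 and Sp9 they were 0.07, 0.08 and 0.06, at or below the 38.6th percentile. The difference between the genotypes was 0.09 times the SD within groups for Dlx1, and 3.11 times for Sp9.

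Dlx1, Dlx2, Gad1, Gad2 and Slc32a1 varied together over the 6 arrays. Pearson's r for their 10 pairs lay between 0.73 and 0.93 (n = 6 arrays), and between 0.70 and 0.99 after the group means were removed. Dlx5 did not share this pattern, with r of -0.67 to 0.07 to the other 8 genes, nor did Dlx6, with r of -0.67 to 0.17. Dlx5 and Dlx6 also ran opposite to each other, at -0.67. The SD of Dlx6 within groups was 0.085, beside a median of 0.091 over all genes, which limits what its r values can show. Maf had r of 0.53 to 0.89 to the genes other than Dlx5 and Dlx6, and Sp9 had r of 0.43 to 0.89 to them. All these values share the same 6 arrays and their normalization, and are given as a description.

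The mean of the 9 centred genes was -0.15, -0.04 and 0.03 in control replicates 1, 2 and 3, and -0.0025, 0.02 and 0.13 in mutant replicates 1, 2 and 3. Control replicate 1 was the lowest array and mutant replicate 3 the highest, and the groups overlapped. In bulk tissue, a change in the number of interneurons and a change in RNA per interneuron cannot be told apart. Mutant replicate 1, high in meningeal genes, lay between the other arrays here.

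**Figure D3:**
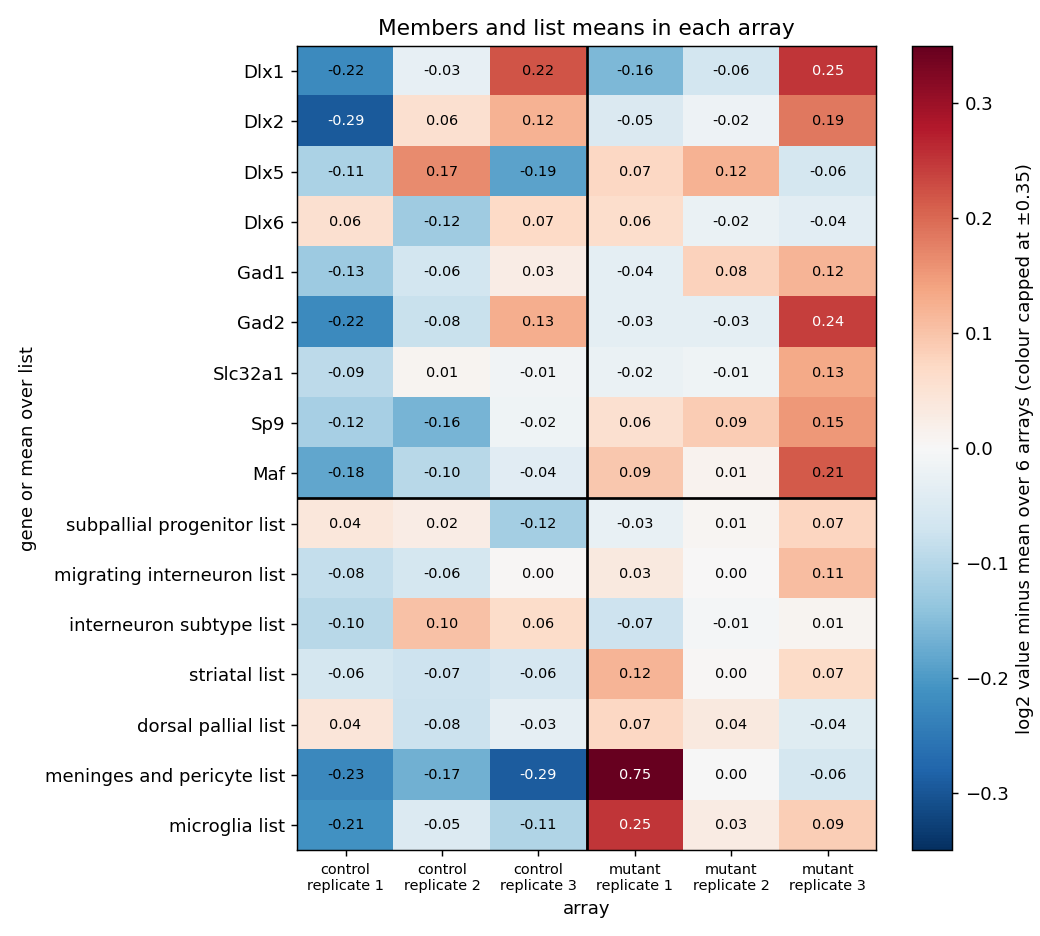
Log2 value minus the mean over the 6 arrays for the 9 genes (upper rows) and for the mean of 7 gene lists (lower rows) in each array (columns); colour is capped at ±0.35 and each cell prints its value. Control replicate 1 is low and mutant replicate 3 high for most of the 9 genes, and the meningeal list is at 0.75 in mutant replicate 1.

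Genes most like the Dlx genes over the arrays were sought by Pearson's r to the centred mean of Dlx1, Dlx2, Dlx5 and Dlx6 (n = 6 arrays), among 565 brighter and more variable genes. The highest were Tmem130 at 0.99, Nr2f2 at 0.98, Gabra5 at 0.98, Chac2 at 0.98, Ntm at 0.97, Arhgap20 at 0.97, Gnal at 0.97 and Cd200 at 0.97. That mean itself followed Dlx2, at 0.995, and Dlx1, at 0.87, more than Dlx5, at 0.04, or Dlx6, at -0.36. Nr2f2 encodes an orphan nuclear receptor of caudal eminence interneurons, and Gabra5 encodes a GABA-A receptor subunit. Nr2f2 read 8.06, 8.54 and 8.74 in control embryos, against 8.47, 8.64 and 8.76 in mutant embryos. It was lowest in control replicate 1 and differed between genotypes by 0.18 (limma adjusted p = 0.9995). Of the 565 genes, 35 had r of at least 0.9. The pattern was not particular to genes of interneurons. To the same mean, Rgs5 of the pericyte list and C1qb of the microglial list both had r of 0.87, beside 0.81 for Gad1. Other genes of those lists did not follow it, such as Dcn at -0.02 and Cx3cr1 at -0.25.

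Factors of ventral progenitors were read beside the core genes. Of 15 such factors none passed, 10 had positive differences and the median was 0.04. The direction of that median was not stable, since it was -0.07 without control replicate 3, and it was close to 0 after quantile normalization (0.0064) and median centring (0.0035). Gsx2, a homeodomain factor of lateral eminence progenitors, was at 5.85 ± 0.07 in the control group and 5.95 ± 0.12 in the mutant group (SD, n = 3). Nkx2-1, which specifies the medial eminence, was at 6.80 ± 0.11 and 6.75 ± 0.04. The factors did not vary alike over the arrays. In control replicate 1, where Dlx1, Dlx2 and Gad2 were lowest, Nr2f2 and Ptch1, the receptor gene of Sonic hedgehog, were lowest too, at 8.06 and 8.54. Olig2, another ventral progenitor factor, was at its highest there, at 7.08. So were Nkx2-1, at 6.86, and Olig1, Six3, Gli1, Shh, Vax1 and Otx2, while Gsx2 read 5.91. The means of Olig2, Gsx2 and Nkx2-1 over the 6 arrays were 6.90, 5.90 and 6.77. These, and the means of the other factors highest in control replicate 1, lay below the median of all genes, 7.92. Compression by RMA therefore bears more on these factors. The centred mean of the 15 factors was 0.04, 0.02 and -0.12 in control replicates 1, 2 and 3, and that of the choroid plexus list was 0.09, 0.03 and -0.17. The medians of all probe sets in these arrays were 7.33, 7.27 and 7.23. Whether the amount of ventral tissue differed between samples, and its part in the values of the core genes, was not tested. Of 14 dorsal pallial genes, which mark the cortex itself, none passed and the median was 0.02, with -0.0076 to 0.06 when 1 array was left out and -0.02 with median centring. Emx1, a homeodomain factor of the dorsal pallium, was at 9.94 in each group. Slc17a6, a vesicular glutamate transporter gene, differed by 0.37 and Eomes by 0.21 without passing (limma adjusted p = 0.126 and 0.503). Emx2 and Slc17a7, another vesicular glutamate transporter gene, went the other way, by -0.15 and -0.19 (limma adjusted p = 0.927 and 0.9995). Of the 14 differences 9 were positive and 5 negative.

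Among 23 genes of migrating interneurons, 1 passed, 16 had positive differences and the median was 0.08, which was 0.04 without mutant replicate 3 and 0.05 with median centring. Nrp2, a semaphorin receptor gene that steers interneurons and other migrating neurons, rose from 9.15 ± 0.11 to 9.74 ± 0.05, by 0.59 log2 units (SD, n = 3, limma adjusted p = 0.0135). It did not pass without control replicate 2, mutant replicate 1, mutant replicate 2 or mutant replicate 3, with adjusted p between 0.0659 and 0.0864. Npas3 and Npas1, which encode bHLH-PAS factors, differed by 0.24 and 0.27, and the chemokine receptor gene Ackr3 by 0.26, each with groups that did not overlap (limma adjusted p = 0.250 to 0.471). Robo1, a slit receptor gene, differed by 0.20 (limma adjusted p = 0.626). Nrp1 of the same list differed by -0.16, with all mutants below all controls (limma adjusted p = 0.813). Of the 23 genes 5 had all mutants above all controls and 1 all mutants below, beside 7.69% and 2.85% of all genes.

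Lhx6, the LIM factor of interneurons from the medial eminence, was at 9.67 ± 0.21 in the control group and 9.95 ± 0.14 in the mutant group (SD, n = 3). It read 9.44, 9.71 and 9.86 in control embryos, against 9.84, 9.91 and 10.11 in mutant embryos, so that 1 mutant lay below the highest control. Its difference was 0.28 ± 0.11 (SE, limma adjusted p = 0.730). Sp8, the closest relative of Sp9, had a difference of the opposite sign. It read 6.97, 6.76 and 6.87 in control embryos, against 6.81, 6.58 and 6.51 in mutant embryos, a difference of -0.23 ± 0.09 (SE, limma adjusted p = 0.727). Whether Sp8 and Sp9 differ in their response was not tested. The 12 measured relatives of Sp9 and Maf had a median difference of 0.01, which was -0.018 to 0.013 when 1 array was left out and -0.029 with median centring, and none passed.

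Genes of interneuron subtypes spread further than the core genes, although none of 17 passed and their median was 0.03. Npy and Sst, neuropeptide genes of interneurons, differed by -0.60 and -0.50 with mutants below controls (limma adjusted p = 0.353 and 0.478). Sst read 9.98, 10.25 and 9.78 in control embryos, against 9.18, 9.74 and 9.58 in mutant embryos, so that every mutant was below every control. Calb2, a calcium-binding protein gene of interneurons and of Cajal-Retzius cells, differed by -0.68 (limma adjusted p = 0.179). Tac2, the neurokinin B precursor gene, differed by 1.03 in the other direction, from 6.87 ± 0.52 to 7.90 ± 0.16 (SD, n = 3, limma adjusted p = 0.163). Of these 17 genes 4 had all mutants below all controls and 1 all mutants above, while 10 had positive differences. The same shares over all genes were 2.85%, 7.69% and 60.3%. Scaling turned the median of these 17 to -0.0063 with quantile normalization and -0.012 with median centring.

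Among 10 measured genes of GABA uptake, breakdown and chloride balance, none passed, 7 had positive differences and the median was 0.08, which was 0.04 without mutant replicate 1 and 0.05 with either quantile normalization or median centring. Abat, the transaminase that degrades GABA, differed by 0.13 (limma adjusted p = 0.965). Slc6a13, a GABA transporter gene that meninges express, read 8.40 in mutant replicate 1 and 5.85 to 5.99 in the other 5 arrays. The other mutants lay below every control, and the difference of 0.76 is a mean over these unlike arrays. Slc6a12 and Slc6a11, which also encode GABA transporters, differed by 0.14 and 0.15.

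The striatal lineage also derives from Dlx-expressing progenitors, and 1 of its 18 measured genes passed. Ebf1, a transcription factor gene of striatal neurons, rose from 7.64 ± 0.20 to 8.52 ± 0.15, by 0.88 log2 units (SD, n = 3, limma adjusted p = 0.0188). It passed without control replicate 3 (adjusted p = 0.00868) and did not pass when any 1 other array was left out (0.0571 to 0.0952). Pbx3 and Meis1, homeodomain genes, differed by 0.40 and 0.29, and Tshz1 by 0.22, without passing (limma adjusted p = 0.265, 0.370 and 0.727). Foxp1, a forkhead gene of striatal and cortical neurons, differed by -0.20 (limma adjusted p = 0.577). The list median was 0.06, which was 0.10 without control replicate 1, 0.04 without control replicate 3 and 0.02 with median centring, and 12 of the 18 differences were positive.

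**Figure D4:**
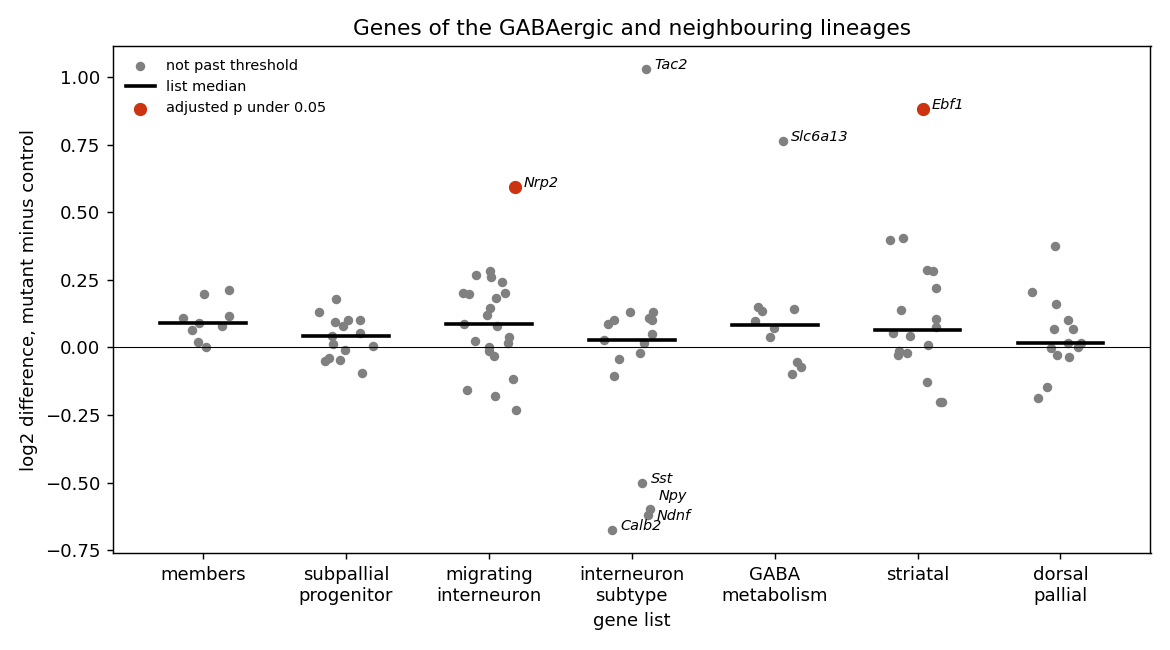
Log2 difference of mutant minus control (y axis) for each measured gene of 7 lists (x axis), with black bars at list medians and red points for genes at an adjusted p under 0.05. The 9 core genes lie between -0.00036 and 0.21, the interneuron subtype genes between -0.68 and 1.03, and the red points are Nrp2 and Ebf1.

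Other lists gave the wider setting of the samples. Of 8 endothelial genes, 6 choroid plexus genes and 8 thalamic and hypothalamic genes none passed, with medians of 0.10, 0.04 and -0.02. The endothelial median was 0.02 without mutant replicate 1, 0.16 without control replicate 3 and 0.19 without mutant replicate 2, and leaving out 1 array gave medians of -0.04 to 0.09 for the choroid plexus list and -0.08 to 0.02 for the thalamic list. Of 12 meningeal and pericyte genes none passed, with a median of 0.27, and 0.13 without mutant replicate 1. Of 8 erythroid genes 6 passed as higher in the mutants, beside 0.246% of all genes. All 8 had positive differences and every mutant above every control, beside 60.3% and 7.69% of all genes, with a median of 0.68.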

How the data were processed

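The deposited log2 values were made by the authors with Affymetrix Expression Console and RMA, per the submitters' processing notes, which corrects background, applies quantile normalization and summarises each probe set. Software versions and the array's genome build are not stated in the sources used here. The log2 scale was taken from RMA and from values between 3.41 and 13.8. RNA was prepared from each embryo separately, per the series text.

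Of 35556 probe sets, 21789 had 1 gene symbol in the platform annotation held by GEO, whose symbols may be out of date. The probe set with the highest mean was used per gene, giving 19938 genes. The genotypes were compared by lmFit and eBayes of limma 3.58.1 (R 4.3.3), without a covariate and checked on simulated data, with two-sided p adjusted by the Benjamini-Hochberg method over all genes. The threshold was an adjusted p under 0.05. Intervals are 95% moderated intervals per gene. Exact permutation tests compared 3 against 3 arrays. Arrays have no read depth, and their number limits precision.

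The members and lists were chosen with earlier results of these data known. Genes past the threshold were named from the lists of the GABAergic, striatal and dorsal pallial lineages and of relatives of Sp9 and Maf. From each of these lists, some or all of the 4 further genes with the smallest p were named. No gene was named by this rule from the erythroid, meningeal, endothelial, microglial, choroid plexus and thalamic lists. The 8 genes most like the Dlx mean were chosen among genes at or above the median level with an SD over the arrays of at least 0.2. The nearest 3 tested genes on either side of each member were all counted, and some were named. Lhx6, Nkx2-1, Olig2, Ptch1, Emx1, Dlx1as, Dlx3 and Dlx4 were named after their values were seen or as relatives. So were Nrp1, Slc17a7, Olig1, Six3, Gli1, Shh, Vax1, Otx2, Rgs5, Dcn, C1qb and Cx3cr1. Motifs were chosen with the promoters in view. Promoters come from RefSeq (GRCm38.p6), and gene order from the same assembly.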

Additional observations from a re-analysis of the deposited data

How the results depend on the processing

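None of the 9 core genes passed in any of the 16 alternatives, with a lowest adjusted p of 0.0779, for Sp9 with array weights. Of 135 values of single core genes, 123 kept their direction and 12 turned, none of them past the threshold. Dlx1 was -0.017 after quantile normalization and -0.018 after centring on medians. Dlx5 was -0.020 with array weights. Dlx6 was 0.066 with array weights and 0.025 with a term for sex. Leaving out 1 array gave -0.10 to 0.14 for Dlx1, -0.050 to 0.16 for Dlx2 and -0.063 to 0.034 for Dlx6. It gave 0.02 to 0.19 for Dlx5, 0.07 to 0.15 for Gad1, 0.02 to 0.21 for Gad2 and 0.01 to 0.09 for Slc32a1, so the sizes of these differences moved with single arrays. Over all alternatives Sp9 ranged from 0.16 to 0.24 and Maf from 0.16 to 0.26. The number of genes past the threshold was 217 with array weights, 87 with trend and robust moderation, 24 with sex as a covariate (2 of 3 controls and 1 of 3 mutants read as female) and 107 at an adjusted p under 0.1. Fits on 5 arrays, which hold fewer samples, gave 20 to 50.

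In the fit with a replicate block 34 genes passed, none of them a core gene. The deviations of arrays with the same number correlated at 0.03, -0.14 and 0.08 over all genes, so the numbers were not taken as pairs. Over the 9 core genes alone these correlations were 0.78, 0.42 and 0.88, and the SE of Dlx1 was 0.06 with the block in place of 0.13. The numbers share no stated litter, batch or day.

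The number of arrays and the missing detection calls limit what can be said of Dlx6.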

Other observations

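The genes nearest to the core genes on their chromosomes were read as a local background, with up to 3 tested genes on either side of each. Of 43 such neighbours 1 passed, beside 0.286% of all genes. Positive differences were found for 21, beside 60.3% of all genes, and the median was -0.0005. For 7 of the 43 the groups did not overlap, beside 10.5% of all genes. Among these were Ppp1r16b near Slc32a1, which differed by -0.42, and Vat1l near Maf, by 0.25 (limma adjusted p = 0.207 and 0.617). The gene that passed was Gpr158, an orphan G protein-coupled receptor gene near Gad2, which rose by 0.82 on the log2 scale (limma adjusted p = 0.0182). It read 6.15, 6.33 and 6.38 in control embryos, against 7.31, 7.08 and 6.93 in mutant embryos, so the groups were far apart while Gad2 itself overlapped. Gpr158 passed when control replicate 3 or mutant replicate 3 was left out and not when any 1 of the other 4 arrays was (adjusted p = 0.0548 to 0.0864).

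Around Sp9 and Dlx2 no tested neighbour passed. Sp3, a zinc finger gene close to Sp9, differed by 0.05, and Cir1, on its other side, by 0.06. Itga6, an integrin gene beyond Dlx2, differed by 0.07, and Hat1, a histone acetyltransferase gene before Dlx1, by -0.16 (limma adjusted p = 0.684).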
